A study of Mus musculus with 16 samples.

Results

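The Toll-like receptor genes of the mouse were followed in lung myeloid cells from tumour-bearing lungs. Members were taken by gene symbol: Tlr1 to Tlr9 and Tlr13, each through a probe set annotated with that symbol alone. Of these 10 symbols 9 had such a probe set, out of 19938 genes measured, and Tlr5 was not analysed here. No member had more than 1 probe set, so no choice between probe sets was needed. The cells had been sorted on CD11c, MHC2 and CD11b, all positive, and are called CD11b+ DCs in the labels. They came from mice of the C57BL/6 strain whose airways had been inoculated with Lewis lung carcinoma (LLC) cells, a transplantable lung tumour line of the same strain. The 16 arrays comprised 8 titled tumoral, from the lung tumour, and 8 titled peritumoral, from lung tissue beside it, so that every animal bore tumour and no tumour-free lung was compared. The sources used here give neither the age of the mice nor whether an array stands for 1 animal or a pool, so p-values measure only the spread between these samples, which may be technical.

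Toll-like receptors are transmembrane sensors of microbial and damage-derived molecules. Tlr1, Tlr2, Tlr4 and Tlr6 encode receptors of the cell surface that respond to lipoproteins and lipopolysaccharide. Tlr3, Tlr7, Tlr8, Tlr9 and Tlr13 encode receptors of endosomes, the group that responds to nucleic acids. All signal through adaptors with a TIR domain, chiefly MyD88, and Tlr3 through TRIF, towards NF-κB and interferon regulatory factors. In the lung, dendritic cells, monocytes and macrophages each carry their own set of these receptors.

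The values are log2 expression as deposited, in which a difference of 1 stands for a doubling, provided the base of the logarithm is 2. A level of one probe set cannot be set against that of another, so each gene was compared only with itself across arrays. Array medians lay between 6.75 and 6.95. Peritumoral 4 stood apart: the mean of 8 endothelial marker genes, each centred on its own mean over all arrays, was 3.62 there, 1.37 in peritumoral 7 and between -0.51 and 0.15 in the other 14 arrays. The means of the B cell, alveolar macrophage, epithelial, fibroblast, and T and NK cell markers were also highest in peritumoral 4, and those of the neutrophil markers were 1.43 there and 1.23 in peritumoral 5. Results are therefore also given without peritumoral 4, and without it and peritumoral 7. The genes of the sorting markers were measured in every array, Itgax from 11.07 to 11.79, Itgam from 10.18 in peritumoral 4 to 11.80 and H2-Ab1 from 13.06 to 13.38.

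Every Toll-like receptor gene varied more among the arrays of each label than between the labels. The part of the sum of squares between the labels ran from 1.55% (Tlr3) to 36.7% (Tlr2). The mean of every one of the 9 members was higher in tumoral arrays, where 41.7% of all genes were, with a median difference of 0.15 against -0.02 over all genes. In limma with Benjamini-Hochberg adjustment over all genes, 0 of 9 members passed a threshold of 0.05, and 0% of all genes did. At an unadjusted p under 0.05 there were 2 members, Tlr2 and Tlr7, both higher in tumoral arrays, where 11.5% of all genes lay in either direction and 5.6% were higher. In an exact permutation test over all assignments of the labels these were again the 2 members under 0.05, and in a rank-sum test Tlr2 alone was. The labels overlapped for all 9 members, and 0.0853% of genes did not overlap. The share of each gene's sum of squares that lay between the labels had a median of 12% over the members and 5.6% over all genes. The residual SD had a median of 0.26 over the members and 0.17 over all genes.

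Markers of other cell types also differed in mean between the labels. Their means were lower in tumoral arrays for 8 of 8 endothelial genes (median difference -0.81), 8 of 8 epithelial (-0.58), 8 of 8 fibroblast (-0.53), 10 of 10 neutrophil, 7 of 7 B cell, 7 of 7 alveolar macrophage and 8 of 9 T and NK cell genes. Of all 19938 genes 11627 had lower means in tumoral arrays. The B cell list was 2.16 in peritumoral 4, from -0.64 to 0.28 in the other peritumoral and from -0.67 to 0.25 in tumoral arrays. For alveolar macrophages these were 1.51, -0.62 to 0.21 and -0.55 to 0.24. Outside peritumoral 4 and 7 the endothelial list ran from -0.5 to 0.15 in peritumoral and from -0.51 to -0.42 in tumoral arrays. The endothelial cadherin gene Cdh5 and the matrix gene Sparc, both named after their values were seen, did not overlap between the labels, with differences of -1.70 and -1.16 (limma, adjusted p = 0.310 and 0.314). Of 8 monocyte and macrophage genes 7 had higher means in tumoral arrays, with a median difference of 0.19. The part of these shifts in the differences of the receptors was not tested.

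**Figure D1:**
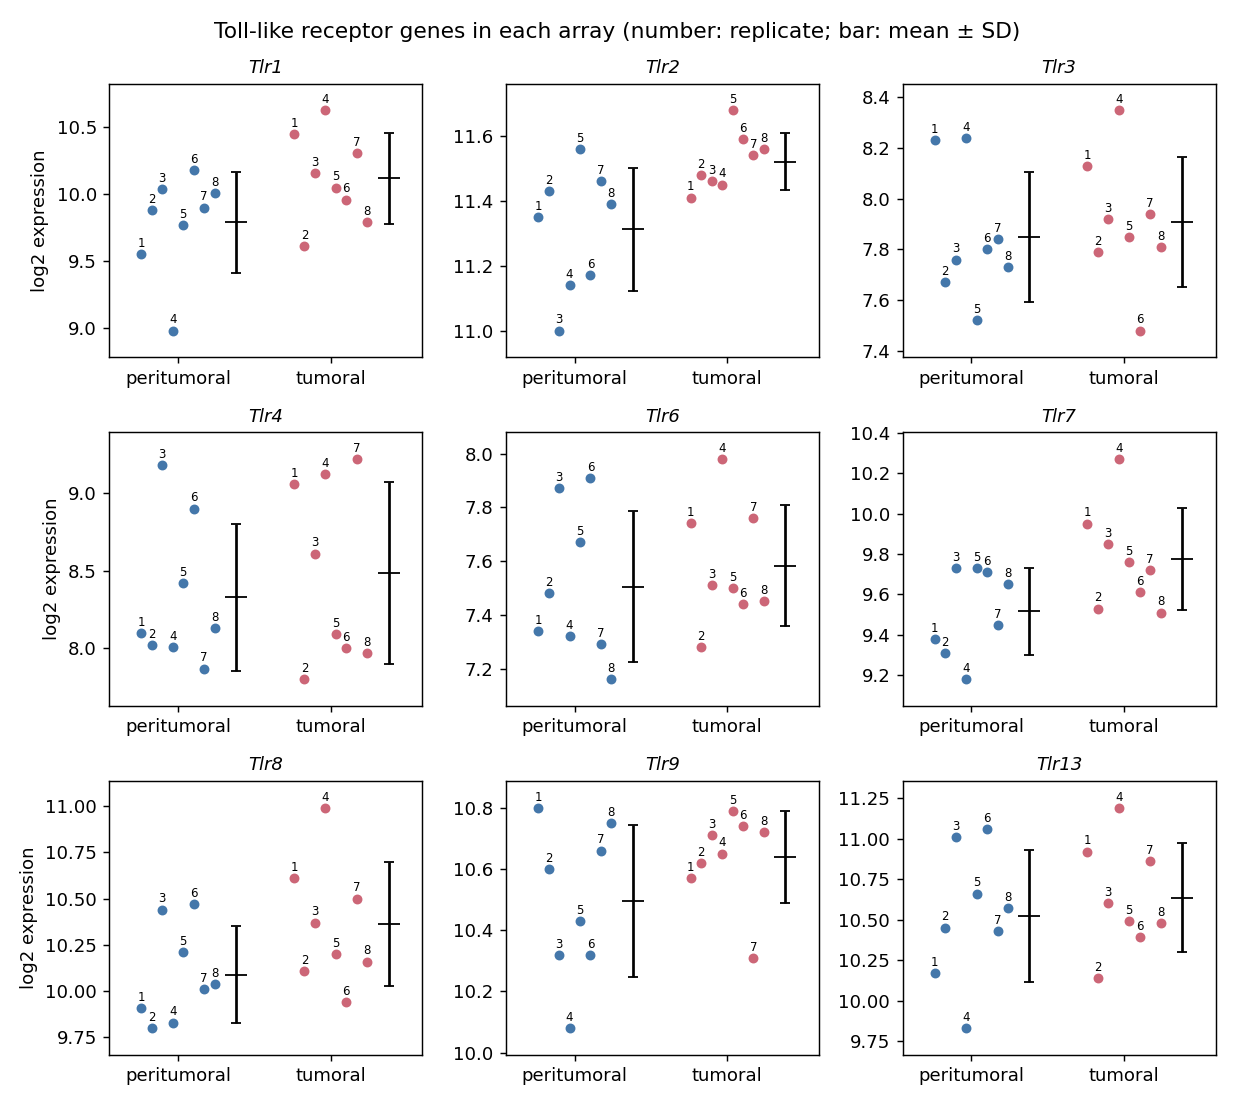
Log2 expression of the 9 Toll-like receptor genes in each array. Points are arrays with their replicate number, blue for peritumoral and red for tumoral, and the black bar beside each group is its mean ± SD (n = 8). The axes differ between panels and do not start at 0. Tumoral 4 is the highest array for 6 of the 9 genes and peritumoral 4 the lowest for 4.

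Among receptors of the cell surface, Tlr2 had the narrowest spread in tumoral arrays. Tlr2 encodes the shared partner in the heterodimers that recognise bacterial lipoproteins. In tumoral arrays it measured 11.41 at the lowest, 11.51 at the median and 11.68 at the highest. In peritumoral arrays it measured 11.00, 11.37 and 11.56. All 8 tumoral arrays lay above the peritumoral median and 3 lay above the peritumoral maximum, while peritumoral 3, 4 and 6 were the 3 lowest of all. The means were 11.52 ± 0.09 and 11.31 ± 0.19 (SD, n = 8), a difference of 0.21 with an SE of 0.08, or 1.16-fold (limma, adjusted p = 0.323; exact permutation p = 0.00979, 0.247 after adjustment over all genes). The difference was 0.18 without peritumoral 4 and 0.20 without peritumoral 4 and 7.

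Tlr1 and Tlr6 encode the partners of Tlr2 for triacylated and diacylated lipopeptides, and the genes are neighbours on chromosome 5. Tlr1 measured 10.45, 9.61, 10.16, 10.63, 10.05, 9.96, 10.31 and 9.79 in tumoral 1 to 8. It measured 9.55, 9.88, 10.04, 8.98, 9.77, 10.18, 9.90 and 10.01 in peritumoral 1 to 8. Tumoral 1, 4 and 7 exceeded every peritumoral array, peritumoral 4 was the lowest of all, and tumoral 2 lay among the lowest peritumoral values. The difference was 0.33 with an SE of 0.16 (limma, adjusted p = 0.456), and 0.22 without peritumoral 4. Tlr6 measured 7.74, 7.28, 7.51, 7.98, 7.5, 7.44, 7.76 and 7.45 in tumoral 1 to 8. In peritumoral 1 to 8 it measured 7.34, 7.48, 7.87, 7.32, 7.67, 7.91, 7.29 and 7.16. The 5 highest arrays were tumoral 1, 4 and 7 and peritumoral 3 and 6, so that both labels held high and low arrays. The difference of 0.08 had an SE of 0.12 (limma, adjusted p = 0.836), and it was 0.01 without peritumoral 4 and 7 and 0.14 without peritumoral 6.

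Tlr4, the lipopolysaccharide receptor gene, had the largest residual SD of the members, 0.53. It measured 9.06, 7.80, 8.61, 9.12, 8.09, 8.0, 9.22 and 7.97 in tumoral 1 to 8. In peritumoral 1 to 8 it measured 8.10, 8.02, 9.18, 8.01, 8.42, 8.90, 7.87 and 8.13. Tumoral 7, 4 and 1 and peritumoral 3 and 6 were at 8.90 or above, tumoral 3 and peritumoral 5 were next, and the other 9 arrays were at 8.13 or below. From the lowest to the highest array Tlr4 spanned 1.42 on the log2 scale, or 2.67-fold. The means of 8.48 ± 0.59 in tumoral and 8.33 ± 0.47 in peritumoral arrays (SD, n = 8) differed by 0.15 with an SE of 0.24 and a 95% interval of -0.35 to 0.66 (limma, adjusted p = 0.842). The difference was 0.02 without peritumoral 4 and 7, and with 1 array left out it ran from 0.05 (without tumoral 7) to 0.28 (without peritumoral 3). Of the sum of squares of Tlr4, 2.36% lay between the labels.

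Among the endosomal receptors, Tlr7 and Tlr8 had the closest correlation over all 16 arrays. The Tlr7 protein responds to single-stranded RNA or its breakdown products, and the 2 genes are neighbours on the X chromosome. Tlr7 measured 9.95, 9.53, 9.85, 10.27, 9.76, 9.61, 9.72 and 9.51 in tumoral 1 to 8. In peritumoral 1 to 8 it measured 9.38, 9.31, 9.73, 9.18, 9.73, 9.71, 9.45 and 9.65. Tumoral 1, 3, 4 and 5 exceeded every peritumoral array, and peritumoral 1, 2, 4 and 7 were the 4 lowest. The difference was 0.26 with an SE of 0.11, or 1.2-fold (limma, adjusted p = 0.392; exact permutation p = 0.041, 0.374 after adjustment), and 0.21 without peritumoral 4. For Tlr8 the values were 10.61, 10.11, 10.37, 10.99, 10.20, 9.94, 10.50 and 10.16 in tumoral 1 to 8. It measured 9.91, 9.80, 10.44, 9.83, 10.21, 10.47, 10.01 and 10.04 in peritumoral 1 to 8. Tumoral 4, 1 and 7 were the 3 highest, ahead of peritumoral 6 and 3, and tumoral 6 lay among the lowest. The difference was 0.27 with an SE of 0.14 (limma, adjusted p = 0.479), and 0.23 without peritumoral 4.

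Tlr13, whose product recognises bacterial ribosomal RNA, had a residual SD of 0.37, and 2.44% of its sum of squares lay between the labels. It measured 10.92, 10.14, 10.60, 11.19, 10.49, 10.39, 10.86 and 10.48 in tumoral 1 to 8. In peritumoral 1 to 8 it measured 10.17, 10.45, 11.01, 9.83, 10.66, 11.06, 10.43 and 10.57. The 5 highest arrays were again tumoral 1, 4 and 7 and peritumoral 3 and 6, and peritumoral 4 was the lowest. The difference of 0.11 with an SE of 0.17 (limma, adjusted p = 0.842) was 0.01 without peritumoral 4 and turned to -0.02 without peritumoral 4 and 7, while it was 0.19 without peritumoral 6.

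Tlr9, the receptor gene for unmethylated CpG DNA, followed another order. In tumoral 1 to 8 it measured 10.57, 10.62, 10.71, 10.65, 10.79, 10.74, 10.31 and 10.72, with tumoral 7 well below the rest. Peritumoral arrays 1 to 8 gave 10.80, 10.60, 10.32, 10.08, 10.43, 10.32, 10.66 and 10.75. Peritumoral 1 was the highest of all, and peritumoral 4, tumoral 7 and peritumoral 3 and 6 were the lowest. The difference was 0.14 with an SE of 0.10 (limma, adjusted p = 0.596), and 0.08 without peritumoral 4. Tlr7 and Tlr9 are known in plasmacytoid dendritic cells and B cells. In peritumoral 4 the mean of the plasmacytoid markers was highest at 0.73 and that of the B cell markers at 2.16. Both receptor genes had their lowest values there, as did Tlr1, Tlr13, Itgam and Fcgr1. Which cells gave these values was not tested.

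Tlr3, the receptor gene for double-stranded RNA, had nearly equal means of 7.91 ± 0.26 in tumoral and 7.85 ± 0.26 in peritumoral arrays (SD, n = 8). In tumoral 1 to 8 it measured 8.13, 7.79, 7.92, 8.35, 7.85, 7.48, 7.94 and 7.81. Peritumoral arrays 1 to 8 gave 8.23, 7.67, 7.76, 8.24, 7.52, 7.80, 7.84 and 7.73. Tumoral 4 was the highest, followed by peritumoral 4 and 1, and each label held values within 0.05 of the lowest, at 7.48 and 7.52. The difference of 0.06 had an SE of 0.12 and a 95% interval of -0.19 to 0.31 (limma, adjusted p = 0.887). It was 0.12 without peritumoral 4 and -0.002 without tumoral 4.

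**Figure D2:**
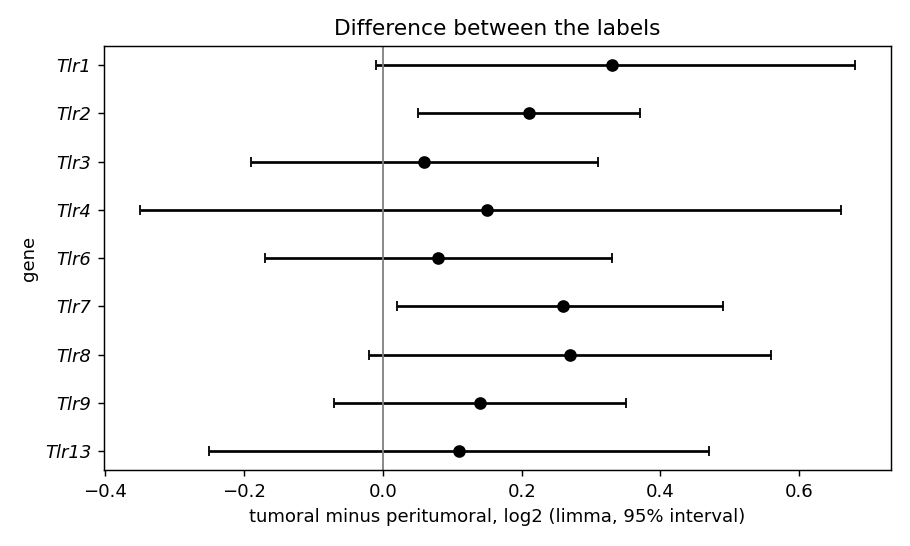
Difference in log2 expression of each Toll-like receptor gene, tumoral minus peritumoral, with its 95% interval from limma (8 arrays per label, no adjustment for the number of genes). All 9 points lie above 0, and the intervals of Tlr2 (0.05 to 0.37) and Tlr7 (0.02 to 0.49) are those that do not reach it.

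The receptors Tlr1, Tlr4, Tlr6, Tlr7, Tlr8 and Tlr13 were high and low together from array to array, whichever label the array carried. Over the 36 pairs of members, 16 had a correlation across the 16 arrays at an adjusted permutation p under 0.05 (100000 permutations, two-sided, Benjamini-Hochberg over the pairs), all with r above 0. These were the 15 pairs among these 6 genes, which were grouped after their values were seen, and the pair of Tlr2 and Tlr9. The share of all gene pairs under this threshold was not computed. High r was not particular to the family. Among the genes most like Tlr4, its nearest member Tlr6 came at place 976, with r = 0.88. Pearson's r among the 6 ran from 0.66 to 0.91, from 0.75 to 0.99 within tumoral and from 0.45 to 0.91 within peritumoral arrays. Over all 16 arrays the closest pair by r was Tlr7 and Tlr8 (r = 0.91, permutation p = 1e-05, the smallest these permutations can give, adjusted p = 0.00015, and Spearman's rho = 0.88, permutation p = 2e-05, adjusted p = 0.00036). Their r was 0.84 without the 2 arrays farthest from the median of Tlr7. Within tumoral and peritumoral arrays it was 0.91 and 0.88, where Tlr8 and Tlr13 gave 0.93 and 0.89. The rho of Tlr8 and Tlr13 over all arrays was also 0.88. For Tlr4 and Tlr6 r was 0.88 (permutation p = 3e-05, adjusted p = 0.00015; rho = 0.81, permutation p = 0.00023, adjusted p = 0.0012), and 0.87 without 2 arrays. The neighbours Tlr1 and Tlr6 gave the lowest r of the 15 pairs, at 0.66 (permutation p = 0.0045, adjusted p = 0.011; rho = 0.71, permutation p = 0.0026, adjusted p = 0.0072), and 0.58 without 2 arrays. Without 2 arrays r stayed between 0.58 and 0.88 for all 15 pairs. The permutations treat the 16 arrays as independent of each other, which arrays that fall into classes are not. Tlr4, Tlr6, Tlr8 and Tlr13 shared the same 5 highest arrays, so these p-values can be too small. The 16 arrays also share whatever else varied between the sorted preparations. In RNA from many cells, fewer cells of a type and less RNA per cell cannot be told apart.

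Tlr2, Tlr9 and Tlr3 kept to other patterns. For Tlr2 and Tlr9 r was 0.63 (permutation p = 0.01, adjusted p = 0.023), but Spearman's rho was 0.39 (permutation p = 0.14, adjusted p = 0.28). Without peritumoral 3 and 4 that r was 0.32, so the relation rested on those arrays. With the 6 genes, r of Tlr2 ran from -0.33 to 0.23 over all arrays and that of Tlr9 from -0.41 to 0.25. Without peritumoral 4 these ranges were -0.46 to -0.01 and -0.69 to -0.17 (n = 15), and within the other 7 peritumoral arrays -0.82 to -0.39 for Tlr2 and -0.96 to -0.59 for Tlr9. Within the tumoral arrays all 12 of these values were below 0, from -0.59 to -0.38 for Tlr2 and from -0.66 to -0.08 for Tlr9. Tlr3 ran with the 6 genes in tumoral arrays, where r lay between 0.76 and 0.96 (n = 8), and against them in peritumoral arrays, where it lay between -0.72 and -0.31 (n = 8), or between -0.48 and -0.19 without peritumoral 4 (n = 7). The difference between the labels in these values was not tested.

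**Figure D3:**
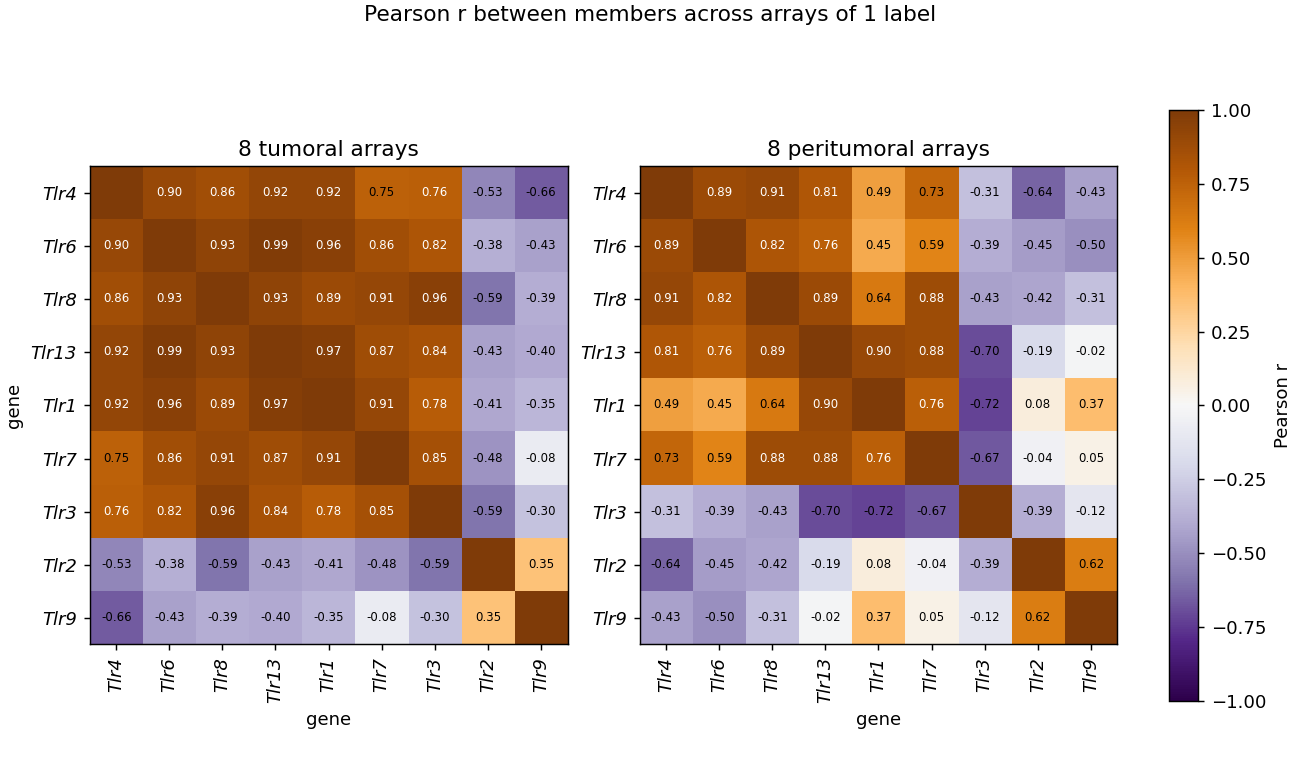
Pearson's r between each pair of Toll-like receptor genes across the 8 tumoral arrays (left) and the 8 peritumoral arrays (right), from -1 (purple) to 1 (orange). The block of 6 genes from Tlr4 to Tlr7 is positive in both panels, and the row of Tlr3 is positive with them on the left (0.76 to 0.96) and negative on the right (-0.72 to -0.31).

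The arrays that were high in these receptors were low in most genes of the conventional dendritic cell list and high in Fcgr1. The 5 highest arrays for Tlr4, Tlr6, Tlr8 and Tlr13 were the same, peritumoral 3 and 6 and tumoral 1, 4 and 7. In the deposited order of 16 arrays these hold positions 3, 6, 9, 12 and 15, and no label sets them apart. Whether the titles match the tissue or cell subset of each array could not be checked from the values, so every difference here is between arrays as titled. Tlr12, a further family member outside the rule, which responds to parasite profilin, was highest in the same 5. It measured 8.22 in tumoral 4, 7.67 in tumoral 1 and 7.34 in tumoral 7. Peritumoral 3 and 6 gave 7.16 and 7.12, little above peritumoral 8 at 7.05. The lowest 5 arrays for Flt3, the growth factor receptor of dendritic cells, for Zbtb46, a transcription factor gene of conventional dendritic cells, and for Cd209a, a lectin gene of CD11b+ and monocyte-derived dendritic cells, were again these 5. Flt3 measured 8.89, 8.73, 8.78, 8.74 and 9.25 in peritumoral 3 and 6 and tumoral 1, 4 and 7, and Cd209a measured 11.36, 10.74, 11.16, 10.88 and 11.43. The next lowest array was peritumoral 4 for Flt3, at 9.39, and peritumoral 5 for Cd209a, at 11.97. Fcgr1, which encodes the Fc receptor CD64 of monocytes and macrophages, was between 10.01 and 10.72 in these 5 and in tumoral 3, at 9.77 or below in the other 10, and lowest in peritumoral 4 at 8.03. Of the 8 measured genes of the conventional dendritic cell list, 6 (Flt3, Zbtb46, Cd209a, Dpp4, Ccr7 and Irf4) had their 5 lowest values in these 5 arrays. Sirpa, a gene of that list that macrophages also express, ran opposite, with its 5 highest values there, and Clec10a was lowest in peritumoral 4. Taken as whole lists, the mean of 8 conventional dendritic cell genes ran from -0.79 to 0.48 in peritumoral and from -0.63 to 0.46 in tumoral arrays, and its 5 lowest arrays were the same 5. The mean of 8 monocyte and macrophage genes ran from -0.53 to 0.07 in peritumoral and from -0.08 to 0.32 in tumoral arrays. That list was highest in tumoral 4, 1 and 7 (0.32, 0.28 and 0.22), with 0.03 in peritumoral 3 and 0.00 in peritumoral 6. Its genes did not all follow Fcgr1. Cd68, Csf1r and Mertk were also high in most of the 5 arrays, and Adgre1 and Mrc1 in only part of them. Plac8 was lowest in peritumoral 6 and 3, and Ccr2 was next to lowest in tumoral 4.

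Set against each other, Tlr13 and Fcgr1 gave r = 0.92 (permutation p = 2e-05, adjusted p = 0.00013; Spearman's rho = 0.90, permutation p = 2e-05, adjusted p = 0.00018), and 0.86 without 2 arrays. This r was 0.92 within tumoral and 0.95 within peritumoral arrays. Tlr4 and Flt3 gave r = -0.88 (permutation p = 0.0001, adjusted p = 0.0003; rho = -0.76, permutation p = 0.00091, adjusted p = 0.0023), -0.92 within tumoral and -0.85 within peritumoral arrays and -0.88 without 2 arrays. Tlr9 ran the other way, with r = 0.63 against Flt3 (permutation p = 0.0087, adjusted p = 0.014; rho = 0.71, permutation p = 0.0028, adjusted p = 0.0057), 0.55 within tumoral and 0.79 within peritumoral arrays and 0.72 without 2 arrays. Tlr2 and Flt3 gave r = 0.55 (permutation p = 0.025, adjusted p = 0.037), while rho was 0.50 (permutation p = 0.052, adjusted p = 0.072) and r was 0.47 without 2 arrays. These belong to a family of 18 relations, the 9 members against Flt3 and Fcgr1, both of which were chosen after their values were seen. The permutations here also treat the arrays as independent of each other, so the p-values can be too small. The part of such differences in cell make-up in the values of the receptors was not tested. With the mean of 8 conventional dendritic cell genes per array as a covariate, an analysis added after seeing the data, the differences between the labels were 0.30 for Tlr8 with an SE of 0.08, 0.20 for Tlr2 with an SE of 0.06 and 0.27 for Tlr7 with an SE of 0.09 (limma, adjusted p = 0.117, 0.135 and 0.151), and 0 of 9 members passed.

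**Figure D4:**
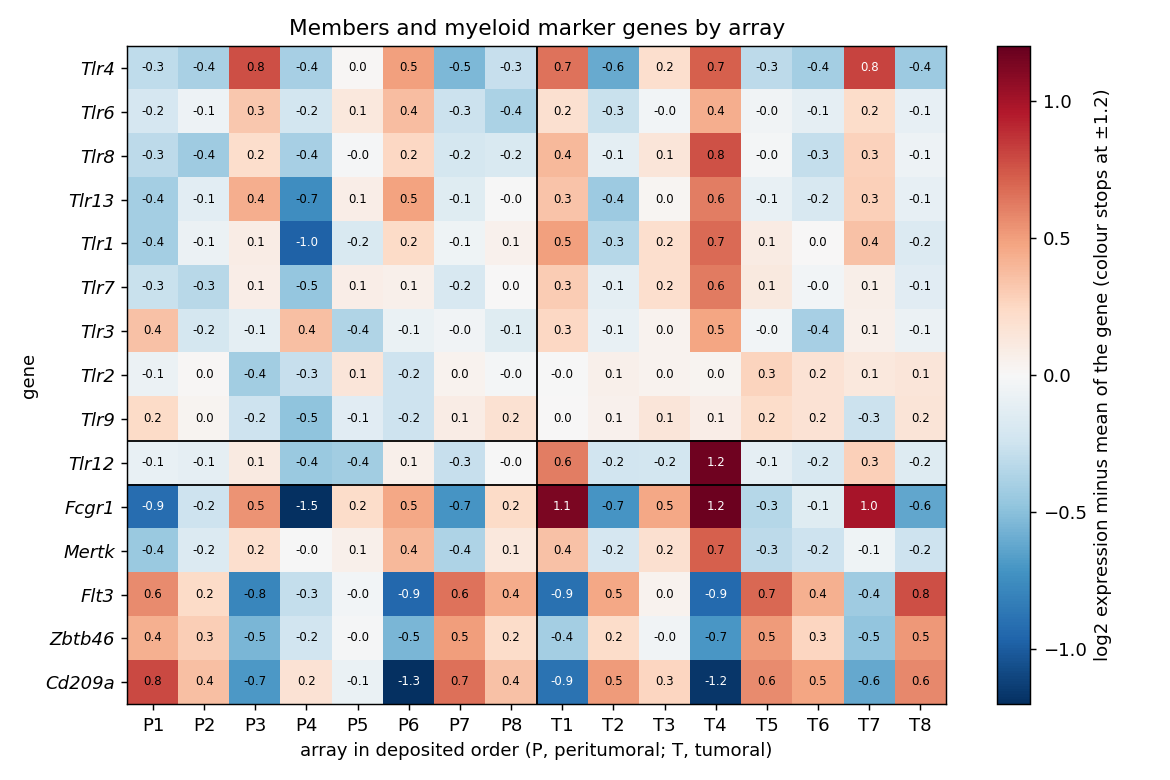
Log2 expression of each gene (rows) minus its own mean over the 16 arrays, in deposited order (columns; P, peritumoral, T, tumoral). The upper block holds the 9 members, the line below it Tlr12, and the lowest block the macrophage-associated genes Fcgr1 and Mertk and the dendritic cell genes Flt3, Zbtb46 and Cd209a. Red columns of Tlr4, Tlr6, Tlr8 and Tlr13 at P3, P6, T1, T4 and T7 stand over blue cells of Flt3, Zbtb46 and Cd209a.

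The genes most like each receptor over the 16 arrays were mostly not other receptors. Tlr4 was most like Umps and Idh1 (r = 0.98 each), and its nearest member, Tlr6, came at place 976. Tlr13 was most like Atp6v0b (r = 0.98) and Sirpa (0.97), and Tlr1 like Tmed10 and Mtx2 (0.97 each), the nearest member coming at places 580 and 329. Tlr6 was most like Cmpk1 and Retsat (0.94 each), and Tlr8 like Nfxl1 and Itsn1 (0.94 each). Tlr7 alone had a member among its 2 nearest, Ube2q2 and Tlr8 (0.91 each). Tlr2 was most like Nlrp3 (0.95), the inflammasome sensor gene, and Tnfrsf1b (0.94), a TNF receptor gene. Tlr9 was most like Tgfbr1 and Ticam1 (0.92 each), the latter the gene of the adaptor TRIF. Tlr3 was most like Pgap1 (0.82) and Tmem245 (0.80), the lowest values of the 9.

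The stretches upstream of the start sites are shown for the covarying receptors that share a purine-rich core of the kind bound by PU.1, a transcription factor of myeloid cells, and for Tlr9, which shares the core but not the pattern. Sequences are from RefSeq, build GRCm38.p6, where 8 of the 10 symbols had an entry, with 10 start sites in all. Tlr4 and Tlr7 had none. Each is given 5′ to 3′ on the strand of the gene, the 250 bases before the start, with the core GAGGAA or its reverse complement TTCCTC in capitals. They lie at chrX:106143025-106143274 (plus strand) for Tlr13, chrX:167264330-167264579 (minus strand) for Tlr8, chr5:64933559-64933808 (minus strand) for 1 of 2 starts of Tlr1, and chr9:106222348-106222597 (plus strand) for Tlr9.
Tlr13: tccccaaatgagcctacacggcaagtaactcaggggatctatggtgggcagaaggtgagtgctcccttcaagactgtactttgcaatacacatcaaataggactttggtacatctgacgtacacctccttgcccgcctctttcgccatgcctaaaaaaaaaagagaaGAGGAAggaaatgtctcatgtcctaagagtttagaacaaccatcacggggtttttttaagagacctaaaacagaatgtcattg
Tlr8: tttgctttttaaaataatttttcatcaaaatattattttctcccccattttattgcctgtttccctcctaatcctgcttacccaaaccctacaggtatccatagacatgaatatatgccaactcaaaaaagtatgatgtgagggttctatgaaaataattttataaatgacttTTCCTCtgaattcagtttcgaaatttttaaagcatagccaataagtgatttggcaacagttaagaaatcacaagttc
Tlr1: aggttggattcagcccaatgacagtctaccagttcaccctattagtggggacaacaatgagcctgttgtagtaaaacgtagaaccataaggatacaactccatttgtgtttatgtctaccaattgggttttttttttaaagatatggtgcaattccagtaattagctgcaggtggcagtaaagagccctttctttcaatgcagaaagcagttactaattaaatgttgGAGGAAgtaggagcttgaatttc
Tlr9: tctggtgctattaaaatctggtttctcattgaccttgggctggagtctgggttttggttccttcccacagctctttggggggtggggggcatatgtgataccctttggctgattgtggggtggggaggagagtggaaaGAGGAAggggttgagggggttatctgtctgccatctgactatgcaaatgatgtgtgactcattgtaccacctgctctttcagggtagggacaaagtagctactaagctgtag
Counted from the start, the first base of the core stood at -83 in Tlr13, -77 in Tlr8, -23 in Tlr1 and -112 in Tlr9. It was found, on either strand, in 4 of the 10 windows of the members and in 23.3% of the 32851 windows of the table. Tlr6, which varied with Tlr13, Tlr8 and Tlr1, had the core in neither of its 2 windows. The other start of Tlr1 and the windows of Tlr2, Tlr3 and Tlr5 lacked it as well. The interferon-stimulated core GAAANNGAA, searched on both strands, was in 2 of the 10 windows (Tlr6 and Tlr8) and in 7.13% of all. The AP-1 core TGANTCA, its own reverse complement, was in 1 of the 10 windows (Tlr9) and in 6.75% of all. In the Tlr6 window, 2 matches of GAAANNGAA, both on the reverse strand, overlapped, with first bases at -115 and -109. The cores were chosen with the results of the members known, and a match describes these letters only.

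Around the receptors, 0 genes of the pathway passed the test over all genes in either direction, in any of 9 lists. Among 17 accessory and trafficking genes the tumoral mean was higher for 13, with a median difference of 0.14. Of these, 4 lay under an unadjusted limma p of 0.05, all higher. Over all genes 41.7% had higher tumoral means and 5.6% were higher under that p. Each count of higher genes in the lists below stands beside that 41.7%. Hsp90b1, the endoplasmic chaperone of the receptors, differed by 0.20 with an SE of 0.06 (limma, adjusted p = 0.256). Cd14, the lipopolysaccharide co-receptor gene, measured 12.26 to 12.39 in tumoral and 11.43 to 12.34 in peritumoral arrays, a difference of 0.31 with an SE of 0.10 (limma, adjusted p = 0.296). Ly96, which encodes the partner MD-2 of the Tlr4 protein and is named after its values were seen, was highest in the 5 arrays that were highest in Tlr4, between 10.81 and 10.91, with tumoral 3 next at 10.79. Unc93b1, the chaperone gene that carries endosomal receptors from the endoplasmic reticulum, was also looked up afterwards and ranged from 10.86 in peritumoral 4 to 11.57 in tumoral 4.

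The signalling lists had smaller median differences between the labels than the receptors. Of 6 adaptors 4 were higher, with a median of 0.06. Tirap, the bridging adaptor of Tlr2 and Tlr4, differed by -0.37 with an SE of 0.17 and Myd88 by 0.15 with an SE of 0.10 (limma, adjusted p = 0.413 and 0.561). The mean of the adaptor list lay between -0.08 and 0.08 in every array but peritumoral 4, at -0.21. Its genes did not move together, with Tirap highest in peritumoral 3 and 6 and Ticam2 lowest in tumoral 4. The range of a gene over the arrays had a median of 0.82 in this list, against 1.09 over the members and 0.65 over all genes. Of 15 genes of kinases, ubiquitin ligases and their partner proteins 8 were higher, with a median of 0.01. Tbk1, a kinase upstream of interferon regulatory factors, differed by 0.28 with an SE of 0.09 and Tab2, an adaptor of the kinase TAK1, by -0.09 with an SE of 0.05 (limma, adjusted p = 0.286 and 0.506). Of 12 transcription factors 9 were higher, with a median of 0.09, Fos at 0.28 and Irf1 at 0.36 (limma, adjusted p = 0.256 and 0.363). Of 15 negative regulators 9 were higher, with a median of 0.08. In that list the deubiquitinase gene Cyld differed by 0.27 and the A20-binding gene Tnip1 by 0.20 (limma, adjusted p = 0.362 and 0.434).

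The genes that receptor signalling induces had another order over the arrays than the receptors. The mean of 20 inducible genes was lowest in peritumoral 4, 6 and 3 (-0.28, -0.28 and -0.27) and highest in peritumoral 5 (0.29) and tumoral 6 (0.26). Tumoral 1, 4 and 7, with the highest receptor means among tumoral arrays (0.29, 0.49 and 0.22), gave -0.05, -0.12 and 0.07. Of these 20 genes 13 were higher in tumoral arrays, with a median of 0.08. The chemokine gene Cxcl1 differed by 0.46 with an SE of 0.18 and the interferon gene Ifnb1 by -0.30 with an SE of 0.13 (limma, adjusted p = 0.350 and 0.390). Sensors outside the family and their downstream partners were higher in 11 of 14 cases, with a median of 0.16. Casp1, the inflammasome protease gene, differed by 0.50 with an SE of 0.14 and Nlrp3 by 0.37 with an SE of 0.14 (limma, adjusted p = 0.248 and 0.329). All 16 interferon-response genes had higher means in tumoral arrays, with a median of 0.34, Oas1a at 0.54 and Oas3 at 0.47 (limma, adjusted p = 0.283 and 0.327). Their mean was highest in tumoral 1, 7 and 4 (0.85, 0.76 and 0.62) but low in peritumoral 3 and 6 (-0.26 and -0.27), which measured 9.18 and 8.90 in Tlr4, where those tumoral arrays measured 9.06, 9.22 and 9.12. Tlr12, the other measured family member, differed by 0.29 with an SE of 0.18 (limma, adjusted p = 0.541).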

How the data were processed

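Total RNA of sorted lung myeloid cells was amplified and biotin-labelled for an Affymetrix whole-transcript array, per the labels' protocols. The authors deposited a table of 28853 probe sets by 16 arrays, read as log2 expression (2.31 to 14.33). The sources used here do not state background correction, normalization or log base. The 21789 probe sets with 1 symbol in the platform annotation gave 19938 genes, by the probe set with the highest mean where there were several. The 1621 with several symbols and 5443 with none were left out.

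Labels were compared by limma 3.58.1 in R 4.3.3 (lmFit, eBayes, 14 residual degrees of freedom, two-sided), adjusted over 19938 genes. The script was tested on simulated data. Differences are tumoral minus peritumoral. The mean of a list is taken over its genes, each minus its mean over 16 arrays. Of 21 lists, 10 hold the receptors and their pathway and 11 cell type and sorting markers.

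The members and lists were chosen with earlier results of these data known. The rule for named genes takes all members, the 2 genes of each pathway list with the smallest p, the 2 genes most like each member by r, and the sorting markers. Others were named after their values were seen.

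Alternatives were the replicate number as a block, quantile normalization, centring on array medians, the brighter genes only, array weights, the mean of probe sets, variances with a trend and robust fit, leaving out each array or peritumoral 4 and 7, an exact permutation test and a rank-sum test over all genes. The dendritic cell covariate was added after seeing the data. Depth has no meaning for arrays, and their number limits the precision.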

Additional observations from a re-analysis of the deposited data

Results flagged for a closer look

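Tlr9 in tumoral 7, at 10.31, lay far below the other 7 tumoral arrays, of which the nearest was at 10.57. The gap was 0.536 of the whole range, past Dixon's 95% critical value for 8 arrays. Chance alone would be expected to mark about 1 in 20 groups, and 18 were examined. No other member had such an array in either label.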

How the results depend on the processing

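No member passed the threshold in limma under any alternative run, and the smallest adjusted p of any member was 0.117, with the dendritic cell covariate. Of 243 values of members under alternatives, 241 kept their direction and their side of the threshold. In some of these runs the difference was that of the main fit by construction, so only the side of the threshold could change. These were the replicate block, the brighter genes, the trend and robust fit, the mean of probe sets and the permutation and rank-sum tests. The difference of Tlr3 ran from -0.002 to 0.12 when 1 array was left out, the lowest without tumoral 4, and that of Tlr13 turned to -0.02 without peritumoral 4 and 7. The count of members higher in tumoral arrays was 8 or 9 throughout. The count of genes called over the whole table, 0 with all arrays, ran from 0 to 128 when 1 array was left out, with 128 called without peritumoral 7 and 20 without peritumoral 8, and was 88 without peritumoral 4 and 7; the cause was not tested, and 0 members were among these calls. The other alternatives called 0 genes, with 2507 under an unadjusted p of 0.05 in the exact permutation test and 2307 in the rank-sum test, against 2292 in limma. With the replicate number as a block 0 genes were called and 1 member lay under an unadjusted p of 0.05. Between arrays of the same number the correlation of deviations ran from -0.56 to 0.29 over 8 pairs. Of 8 peritumoral arrays, 0 were closest to the tumoral array of their own number. Peritumoral 3 and 6, high in Tlr4, were closest to tumoral 4 and 1, which were also high in Tlr4. Whether arrays of the same number share an animal or a batch was not tested. All 9 members were above the median mean of genes. Detection calls were not used here, so how near a value lay to background is unknown.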
